A study of Mus musculus with 6 samples.

Results

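The proteasome genes of mouse renal tubular epithelial cells (TECs) were examined after knockdown of the transcription factor Sox9. They were chosen by name: 50 of the 30315 genes in the expression table are protein coding and carry a proteasome symbol from Psma to Psmg followed by a number. One of the 50, Psmc3ip, only shares the prefix of its symbol and is not a proteasome subunit, so it was kept and described apart. The study asked what Sox9 does in tubular cells injured by oxygen loss. All 6 libraries came from C57BL/6 kidney TECs grown as primary cells and carried through hypoxia/reoxygenation (H/R), a culture model of ischemia-reperfusion injury with 6 hours in glucose-free medium at 1.0% O2 and then 18 hours in complete medium. The cells had received an siRNA 12 hours before H/R, either siSox9 (3 libraries) or the control siRNA siNC (3 libraries). No uninjured cells and no second Sox9 siRNA were part of these 6 libraries, so H/R is shared by both groups and the comparison is between the siRNAs alone. The labels do not say whether the libraries of a group came from separate animals or cultures, so p-values measure the spread between these libraries, which may be technical.

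The proteasome is the protease that degrades ubiquitin-tagged proteins in every cell. Its 20S core is a barrel of stacked rings, with alpha subunits at the ends and beta subunits inside, some of which cut proteins. The 19S regulatory particle caps the barrel, where its lid and base bind the ubiquitin tag, remove it and unfold the protein with a ring of ATPases. Dedicated chaperones (Psmg proteins for the core, Psmd5, Psmd9 and Psmd10 for the 19S base) build the particles, and interferon exchanges the cutting subunits for those of the immunoproteasome. Tubular cells are rich in mitochondria and turn over much protein, and proteasome genes as a group are known targets of the transcription factors encoded by Nfe2l1 and Nfe2l2.

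Values are FPKM, read counts divided by exon length and by library depth, as the authors deposited them. Sox9 itself was 8.87 ± 0.236 FPKM with siSox9 and 26.0 ± 0.496 FPKM with siNC (mean ± SD, n = 3 each), 34.2% of control, with a log2 difference of -1.45 (limma, Benjamini-Hochberg adjusted p = 7.03e-06). The exact two-sided permutation test gave p = 0.1, the smallest that 3 libraries against 3 can give. The libraries held 23893198 to 25725740 reads as recovered from the FPKM values. Tubular markers were expressed, with Krt8 at 2029 to 2190 FPKM and Cdh16 at 98.1 to 130.0 FPKM, but Slc34a1 (proximal tubule) and Aqp2 (collecting duct) were at 0 in 4 and 5 of the 6 libraries, and 1 of 8 tubular markers tested, Cdh16, was higher with siSox9. Macrophage markers summed to 146 to 163 FPKM with siSox9 and 144 to 146 FPKM with siNC, mostly from Lyz2 and C1qa. Of the 6 macrophage markers tested, Lyz2 alone was higher, and the pan-leukocyte marker Ptprc was at 0.632 to 0.781 FPKM. Fibroblast markers summed to 6.45 to 7.95 FPKM with siSox9 and 7.99 to 9.09 FPKM with siNC, endothelial markers to 2.91 to 3.10 and 3.22 to 4.12 FPKM, and podocyte markers to 5.21 to 6.26 and 7.28 to 8.09 FPKM. Of these lists 1 marker each entered the test described below, and Synpo, also a gene of other cells, was lower with siSox9 while Nphs1 was at 0 in all libraries. Of all genes tested, 12.8% were higher with siSox9 and 17.6% lower. All 9 proliferation genes listed were lower, with a median log2 difference of -0.63 and sums of 88.1 to 96.9 FPKM against 134 to 139 FPKM. The part of these genes and markers in the proteasome values was not tested, and in bulk RNA fewer cells of a type and less RNA per cell cannot be told apart.

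Promoter sequences of the mouse genes were read from RefSeq on GRCm38.p6, as the 250 bases before each gene's annotated start, and 42 of the 50 members had an entry. The 4 stretches below are shown 5′ to 3′ in the direction of transcription and are cut to bases outside annotated exons: Psmd10 and Psmd11 because they were higher with siSox9, Psmg1 because it was lower, and Psmb5 because its promoter holds the core of the antioxidant response element, to which the Nfe2l1 and Nfe2l2 proteins bind. Capitals mark TGACNNNGC in Psmb5, found as TGACGTCGC, and CCAAT, the box bound by NF-Y, in Psmd10, where it reads ATTGG because it lies on the opposite strand. The Psmd10 stretch lies at chrX:140956729-140956906 (minus strand), the Psmd11 stretch at chr11:80428365-80428614 (plus strand), the Psmg1 stretch at chr16:95990961-95991210 (minus strand) and the Psmb5 stretch at chr14:54618023-54618245 (minus strand).
Psmd10: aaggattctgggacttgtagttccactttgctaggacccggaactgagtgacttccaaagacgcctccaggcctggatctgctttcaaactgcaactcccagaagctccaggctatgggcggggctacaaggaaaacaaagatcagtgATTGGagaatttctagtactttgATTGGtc
Psmd11: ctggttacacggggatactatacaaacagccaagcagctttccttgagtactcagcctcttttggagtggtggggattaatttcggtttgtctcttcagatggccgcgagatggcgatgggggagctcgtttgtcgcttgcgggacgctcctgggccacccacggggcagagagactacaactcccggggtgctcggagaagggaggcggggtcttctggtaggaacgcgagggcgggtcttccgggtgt
Psmg1: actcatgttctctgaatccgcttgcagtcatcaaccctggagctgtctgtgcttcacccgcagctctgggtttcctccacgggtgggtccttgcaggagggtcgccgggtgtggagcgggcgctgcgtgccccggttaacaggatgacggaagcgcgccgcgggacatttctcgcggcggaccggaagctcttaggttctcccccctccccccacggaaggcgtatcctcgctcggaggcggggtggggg
Psmb5: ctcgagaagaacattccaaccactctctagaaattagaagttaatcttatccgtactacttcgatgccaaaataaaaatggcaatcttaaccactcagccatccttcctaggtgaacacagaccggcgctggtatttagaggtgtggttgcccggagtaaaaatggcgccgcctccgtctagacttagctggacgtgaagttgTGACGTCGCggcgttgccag

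The motifs were searched on both strands of the 250 bases, each as its exact letters. TGACNNNGC stood in 5 of the 42 member promoters (11.9%: Psmb5, Psmb6, Psmc6, Psmd12 and Psmd9) and in 10.2% of all 32851 promoters. The annotated start used for Psmd9 lies 58777 bases from the start of that gene in the expression table. For Psmd5 and Psmf1 this distance was 4006 and 2876 bases. CCAAT stood in 15 of 42 (35.7%) against 33.8% of all promoters. AACAAT, the core that SOX proteins bind, stood in 1 of 42 (2.38%), that of Psmd8, against 9.42% of all promoters. None of the members with TGACNNNGC or AACAAT passed the test described next, and Psmd11 and Psmg1 held none of the 3 motifs. Psmd7 and Psmb2, which passed that test, were among the 8 members without an entry, so their promoters were not searched. A match is a description of the letters and not a binding site.

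Of the 50 members, 45 averaged 1 FPKM or more and entered the test, limma on log2(FPKM + 1) fitted across all 12009 genes that passed the same minimum. With an adjusted p under 0.05, 11 of the 45 differed (24.4%), against 30.4% of all genes tested. Higher with siSox9 were 7 members (Psmd10, Psme2b, Psmd7, Psmd13, Psmd11, Psma4 and Psmc2), against 12.8% of all genes, and lower were 4 (Psmc3ip, Psmg1, Psmb2 and Psma7), against 17.6% of all genes. With each library's log values centred on its median, the members split into 9 higher and 3 lower, and all genes into 1959 higher and 1765 lower in place of 1532 and 2118. The 3 libraries of one group lay wholly outside those of the other for 15 of the 45 members, against 46.3% of all genes, 11 of them higher (20.2% of all genes) and 4 lower (26.1% of all genes). The median log2 difference of the members was 0.04 and that of all genes -0.01, and 32 of the 45 members (71.1%) and 46.4% of all genes had a value above 0. In size the differences were small: the median without regard to sign was 0.0713 for the members and 0.110 for all genes. Without siNC replicate 3 the higher members were 4. The lower members were 2 without siSox9 replicate 1, siSox9 replicate 2 or siNC replicate 2. In all, 15.6% of members passed without siNC replicate 3, against 21.6% of all genes. Without siSox9 replicate 1, siSox9 replicate 2 and siNC replicate 2 these shares were 17.8% against 21.8%, 15.6% against 20.2% and 20% against 23.6%. No test compared the members with other genes.

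**Figure D1:**
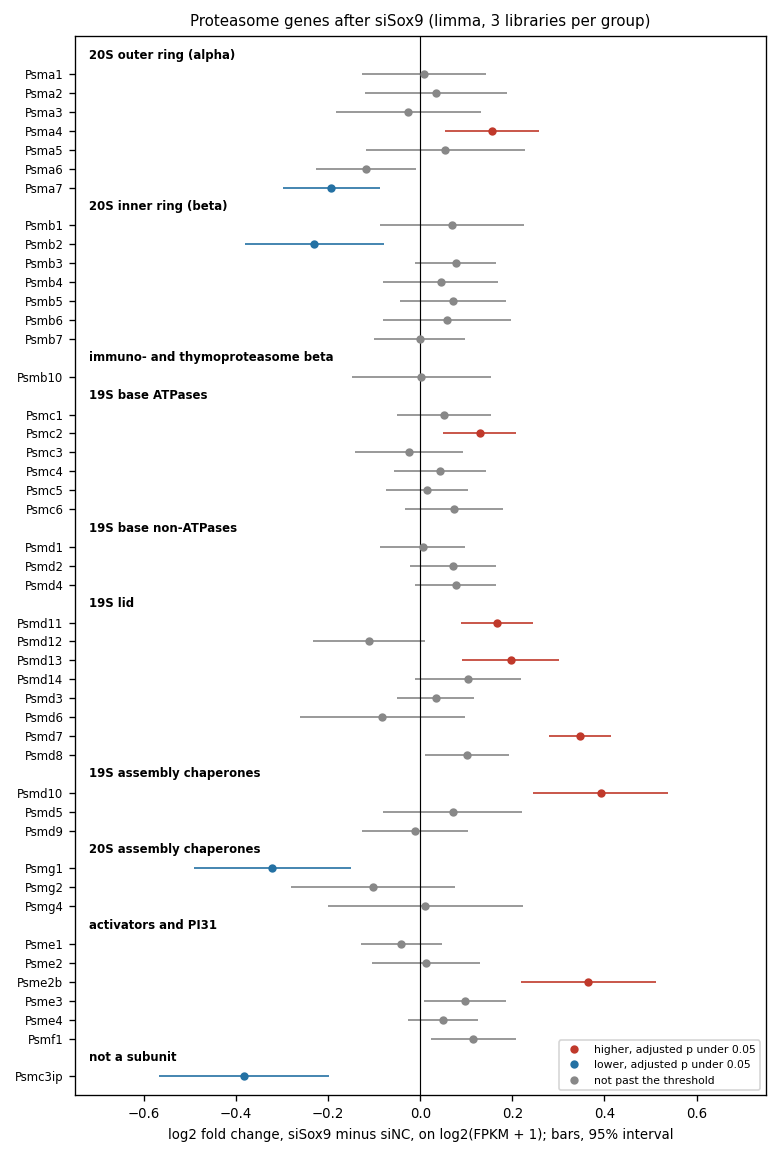
Log2 difference between siSox9 and siNC on the log2(FPKM + 1) scale (horizontal axis) for the 45 members tested, grouped by role, with bars for the 95% interval of each difference. The 7 members in red were higher and the 4 in blue lower at an adjusted p under 0.05 (limma), and the grey ones, which include every 19S base subunit except Psmc2, lay between -0.12 and 0.12.

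The constitutive 20S core gave no common direction. Summed over its 14 subunits it stood at 814 to 880 FPKM in the siSox9 libraries and 790 to 885 FPKM in the siNC libraries, so the groups overlapped. Of the subunits 1 was higher (12.8% of all genes), 2 were lower (17.6% of all genes) and 11 did not pass. In all 21.4% were called, against 30.4% of all genes. Among the alpha subunits, Psma4 (chr9:54950790-54958030, plus strand) measured 51.0, 51.2 and 55.8 FPKM with siSox9 and 46.0, 48.6 and 46.9 FPKM with siNC, a log2 difference of 0.16 (SE 0.04, adjusted p = 0.0335). Its groups did not overlap, but 14.4% of its 50-base windows also occur in other genes, most of them in Gm6542, which was lower with siSox9 (log2 difference -0.19, adjusted p = 0.00934). How reads shared by Psma4 and Gm6542 were divided is not given in the sources used here, so the value of Psma4 is uncertain. Its call was also lost without siSox9 replicate 1, 2 or 3 (limma adjusted p of 0.0503, 0.0604 and 0.0671) and without siNC replicate 1 or 3 (0.0699 and 0.0934). Psma7 (chr2:180036373-180042433, minus strand) measured 51.7, 52.1 and 55.1 FPKM with siSox9 and 57.3, 62.9 and 62.1 FPKM with siNC, with a log2 difference of -0.19 (SE 0.04, adjusted p = 0.0171). All 3 siSox9 libraries lay below the lowest siNC library, but the call was lost without siSox9 replicate 1 or 2 (limma adjusted p of 0.0614 and 0.0655) and without siNC replicate 2 or 3 (0.0540 and 0.0613). Its testis-specific relative Psma8, which takes the place of Psma7 in germ cells, was at or under 0.161 FPKM in every library. The other alpha subunits tested (Psma1, Psma2, Psma3, Psma5 and Psma6) had differences from -0.12 for Psma6 to 0.05 for Psma5. In some alternatives Psma6 did pass as lower. The adjusted p was 0.0419 with quantile-normalized values (limma), 0.0457 with recovered reads (limma voom) and 0.0168 without siNC replicate 1 (limma). Psma5 shares 50.0% of its 50-base windows with other genes, chiefly Gm8394. Psma3 shares 15.4% with Gm13835, which was at 70.9 to 82.4 FPKM, so the values of Psma5 and Psma3 are uncertain too.

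Among the 7 constitutive beta subunits only Psmb2, a structural subunit of the inner ring, passed (14.3%, against 30.4% of all genes). Psmb2 (chr4:126677630-126709714, plus strand) measured 70.1, 71.9 and 77.1 FPKM with siSox9 and 85.3, 93.3 and 79.1 FPKM with siNC, a log2 difference of -0.23 (SE 0.06, adjusted p = 0.0329). The highest siSox9 and the lowest siNC library were close. Over all 16 other settings the limma adjusted p ran from 0.00337 to 0.122. The call was lost in 9 of the 16, TPM and median-centred values included. Among these 9 were the fits without siSox9 replicate 1 or 2 (limma adjusted p of 0.103 and 0.0993) and without siNC replicate 1 or 2 (0.0553 and 0.0711). The cutting subunits stood close to control. Psmb5, with chymotrypsin-like activity, was 45.6 ± 0.660 FPKM with siSox9 and 43.5 ± 2.93 FPKM with siNC (log2 difference 0.07, adjusted p = 0.313). Psmb6, with caspase-like activity, was 62.8 ± 3.86 and 60.3 ± 3.76 FPKM (0.06, adjusted p = 0.499). For Psmb7, with trypsin-like activity, the levels were 24.1 ± 0.286 and 24.1 ± 1.30 FPKM, and the 95% interval of the log2 difference ran from -0.10 to 0.10. The other beta subunits, Psmb1, Psmb3 and Psmb4, had log2 differences of 0.07, 0.08 and 0.04 and did not pass, though the Psmb3 groups did not overlap. Psmb3 shares 17.8% of its 50-base windows with other genes. Psmb5 shares 54.1% of its 50-base windows with copies elsewhere, chiefly in Gm3375, which was at 1.11 to 2.97 FPKM.

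**Figure D2:**
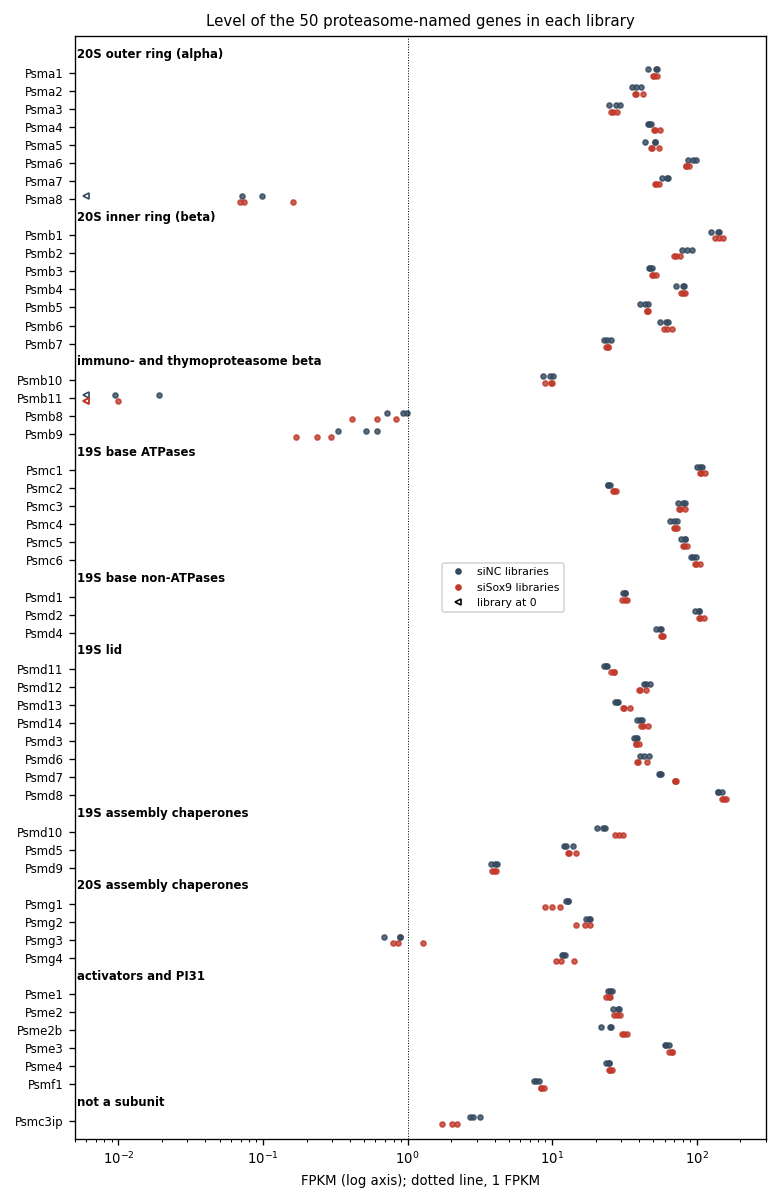
FPKM of all 50 members in each of the 6 libraries (horizontal log axis, 1 point per library, blue for siNC and red for siSox9, open triangles for libraries at 0), grouped by role, with a dotted line at 1 FPKM. Most constitutive subunits lie between 20 and 160 FPKM, while Psma8, Psmb11, Psmb8 and Psmb9 lie under 1 FPKM.

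The immunoproteasome was sparse in these cells except for Psmb10. Psmb10, the trypsin-like immunoproteasome subunit, was 9.52 ± 0.552 FPKM with siSox9 and 9.52 ± 0.770 FPKM with siNC (95% interval of the log2 difference -0.15 to 0.15). Psmb9, the subunit that replaces Psmb6, measured 0.170, 0.237 and 0.297 FPKM with siSox9 and 0.517, 0.611 and 0.330 FPKM with siNC. Psmb8, which replaces Psmb5, measured 0.412, 0.619 and 0.826 FPKM with siSox9 and 0.927, 0.999 and 0.721 FPKM with siNC. The Psmb9 groups did not overlap and those of Psmb8 did. Psmb9 and Psmb8 were under the minimum of 1 FPKM and so outside the main test. As recovered reads, Psmb9 had 16, 22 and 26 in the siSox9 libraries and 47, 54 and 30 in the siNC libraries. In a fit on these reads with no minimum, chosen after seeing the data, the log2 difference of Psmb9 was -1.03 (SE 0.31, limma voom, adjusted p = 0.0275), while log2(FPKM + 1) with no minimum gave -0.26 (limma, adjusted p = 0.125). Psmb9 shares its start region with the peptide transporter gene Tap1 on the opposite strand, and 5.79% of its exon bases overlap Tap1, which was 3.02 ± 0.282 FPKM with siSox9 and 2.93 ± 0.106 FPKM with siNC. The thymus-specific Psmb11 was at 0 in 3 libraries and at most 0.0190 FPKM in the others. Set against the constitutive subunit that each replaces, the ratio with siSox9 was 45.9% of that with siNC for Psmb9 to Psmb6, 66.7% for Psmb8 to Psmb5 and 100.4% for Psmb10 to Psmb7, given as a description with no test.

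In the 19S regulatory particle 4 of 17 subunits tested were higher (12.8% of all genes), none was lower (17.6% of all genes) and 13 did not pass, so that 23.5% were called against 30.4% of all genes. Their sum was 1088 to 1155 FPKM with siSox9 and 1022 to 1093 FPKM with siNC, with the lowest siSox9 library under the highest siNC library. Of the 6 ATPases of the base, only Psmc2 (chr5:21785283-21803787, plus strand) passed, with 26.3, 26.9 and 27.8 FPKM with siSox9 and 24.4, 25.3 and 24.3 FPKM with siNC. Its groups did not overlap, yet its log2 difference of 0.13 (SE 0.03, adjusted p = 0.0264) was the smallest among the members called. The call was lost with TPM values (limma adjusted p = 0.0515), without siSox9 replicate 2 or 3 (0.0792 and 0.0741) and without siNC replicate 1 or 3 (0.0512 and 0.0885). The other ATPases (Psmc1, Psmc3, Psmc4, Psmc5 and Psmc6) had differences from -0.02 for Psmc3 to 0.07 for Psmc6. The 3 non-ATPase subunits of the base did not pass: the scaffold Psmd1 had a log2 difference of 0.01, the scaffold Psmd2, which docks ubiquitin shuttles, 0.07, and the ubiquitin receptor Psmd4 0.08 with groups that did not overlap. Psmd2 shares 17.8% of its 50-base windows with other genes, chiefly Gm5422 (0.987 to 1.32 FPKM). Psmc1 shares 14.1%, chiefly with Gm9575 (0.662 to 1.08 FPKM).

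The lid held the clearest difference, in Psmd7. Psmd7 (chr8:107580381-107588464, minus strand), the partner on which the deubiquitinase Psmd14 sits, measured 71.4, 70.6 and 71.7 FPKM with siSox9 and 54.5, 56.1 and 56.9 FPKM with siNC. Both groups were tight and lay far apart, 1.28-fold, with a log2 difference of 0.35 (SE 0.03, adjusted p = 0.000283). None of its 50-base windows occurs in another gene and no other gene overlaps its exons. Psmd13 (chr7:140881968-140898643, plus strand), a structural lid subunit, measured 31.0, 31.5 and 34.4 FPKM with siSox9 and 27.4, 28.7 and 28.0 FPKM with siNC (log2 difference 0.20, SE 0.04, adjusted p = 0.0156). Of its exon bases 10.1% overlap Sirt3 on the other strand, a gene at 0.725 to 1.02 FPKM, and the call of Psmd13 was lost without siNC replicate 3 (limma adjusted p = 0.0501) and in a linear model that does not share the spread between genes (0.0619). Psmd11 (chr11:80428615-80473248, plus strand), a lid subunit that contacts the core, measured 26.7, 27.0 and 25.7 FPKM with siSox9 and 23.4, 22.9 and 24.0 FPKM with siNC (log2 difference 0.17, SE 0.03, adjusted p = 0.00968). Its groups did not overlap, and 9.43% of its 50-base windows recur in other genes, chiefly A730017L22Rik, which was also higher (1.24-fold, log2 difference 0.20, adjusted p = 0.0364) but at 1.54 to 2.07 FPKM.

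The other 5 lid subunits did not pass. Psmd14, the deubiquitinase itself, was 43.3 ± 2.34 FPKM with siSox9 and 40.3 ± 1.72 FPKM with siNC (log2 difference 0.10, adjusted p = 0.152). So the partners Psmd7 and Psmd14 stood at 1.28-fold and 1.08-fold of control, a pair whose difference was not tested. Psmd8, the member with the highest level in the control (143.7 FPKM), had a difference of 0.10, and Psmd3 0.03. Psmd12 and Psmd6 lay on the other side of 0, at -0.11 and -0.08.

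**Figure D3:**
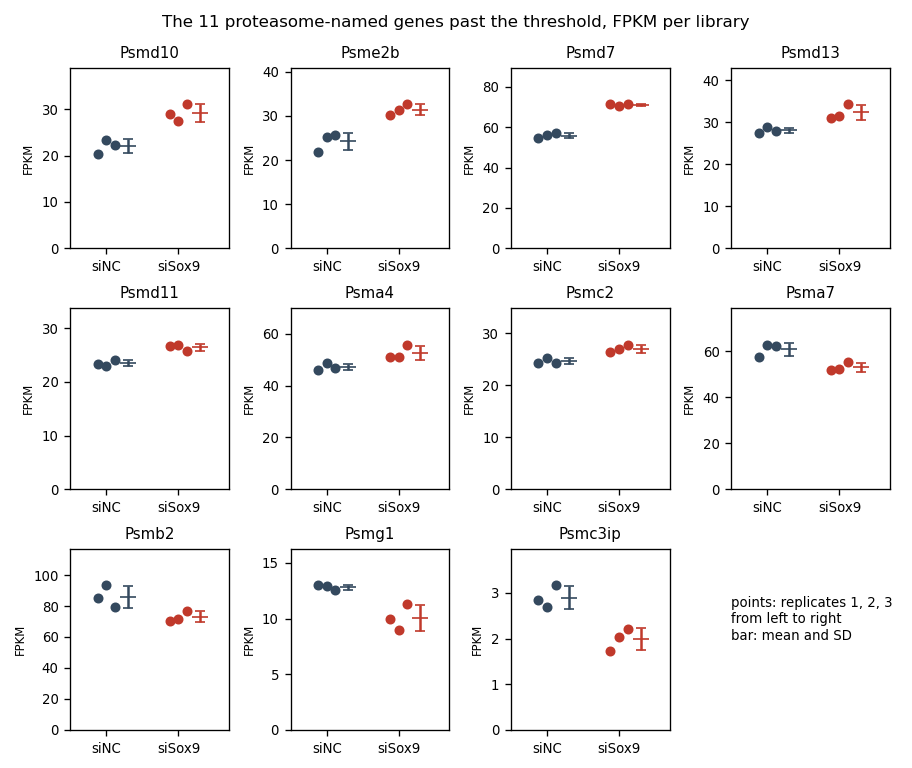
FPKM in each library (vertical axes, from 0) for the 11 members past the threshold, with siNC in blue and siSox9 in red and the mean ± SD beside each group of 3 points. In every panel the 3 siSox9 points lie wholly above or wholly below the 3 siNC points, with the widest gap relative to its spread for Psmd7 (70.6 to 71.7 against 54.5 to 56.9 FPKM).

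Among the assembly chaperones, 1 of 3 tested for the 19S base was higher, as were 12.8% of all genes. Of the 3 tested for the core 1 was lower, as were 17.6% of all genes. Psmd10 (chrX:140948429-140956728, minus strand), also called gankyrin, a chaperone that holds the ATPase Psmc4 during assembly of the base, measured 28.9, 27.4 and 31.2 FPKM with siSox9 and 20.4, 23.3 and 22.4 FPKM with siNC. This was 1.33-fold, the largest rise among the 45 members tested (log2 difference 0.39, SE 0.06, adjusted p = 0.00381), and every siSox9 library lay above every siNC library. Neither shared windows nor overlapping exons were found for Psmd10. The other 19S chaperones did not pass: Psmd5 was 13.5 ± 0.951 and 12.9 ± 0.946 FPKM, and Psmd9 was 3.82 to 4.09 and 3.77 to 4.19 FPKM, with siSox9 and siNC. Psmd9 shares 25% of its 50-base windows with other genes, chiefly Gm26745, which was at most 0.0430 FPKM. Summed, the 3 chaperones of the base stood at 44.2 to 49.9 FPKM with siSox9 and 36.2 to 41.4 FPKM with siNC.

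Psmg1 (chr16:95979933-95990960, minus strand), which with Psmg2 starts the ring of alpha subunits, measured 9.95, 8.97 and 11.3 FPKM with siSox9 and 13.0, 12.9 and 12.5 FPKM with siNC. The siSox9 libraries spread more than the siNC libraries and all lay below them (0.788-fold, log2 difference -0.32, SE 0.07, adjusted p = 0.0152). Its partner Psmg2 was 16.6 ± 1.90 FPKM with siSox9 and 17.8 ± 0.547 FPKM with siNC (log2 difference -0.10, adjusted p = 0.342). The other pair of core chaperones gave 12.1 ± 1.82 and 11.9 ± 0.241 FPKM for Psmg4 and, under the minimum, 0.789 to 1.28 and 0.682 to 0.890 FPKM for Psmg3. For Psmg1 the call was lost with no minimum on FPKM (limma adjusted p = 0.0558). It was also lost in a linear model that does not share the spread between genes (0.0781). The call was kept in the other 14 settings, and the lowest adjusted p was 0.00413 (limma).

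Of the activators that open the core in place of the 19S particle, 1 of 5 passed, against 30.4% of all genes. Psme2b (chr11:48945354-48946190, minus strand), a copy of the PA28 beta gene Psme2, measured 30.2, 31.2 and 32.8 FPKM with siSox9 and 21.9, 25.1 and 25.6 FPKM with siNC, 1.30-fold (log2 difference 0.37, SE 0.06, adjusted p = 0.00501). Psme2 itself was 28.3 ± 1.43 FPKM with siSox9 and 28.1 ± 1.36 FPKM with siNC (log2 difference 0.01, adjusted p = 0.882). The copies share 68.7% of the 50-base windows of Psme2b, so their values are uncertain. Psme2b also overlaps the end of 9930111J21Rik1 on the same strand by 4.90% of its exon bases, and 9930111J21Rik1 was higher as well, at 4.65 ± 0.0499 against 2.90 ± 0.0453 FPKM (log2 difference 0.53, adjusted p = 0.000186). Psme1, the partner of Psme2, had a log2 difference of -0.04, the nuclear activator Psme3 of 0.10 and Psme4 of 0.05. Psmf1, which encodes the inhibitor PI31, came nearest to the threshold of all members that missed it, with 8.44, 8.38 and 8.73 FPKM with siSox9 and 7.49, 8.08 and 7.79 FPKM with siNC (log2 difference 0.12, SE 0.04, adjusted p = 0.0626). Its groups did not overlap.

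Psmc3ip (chr11:101091823-101095436, minus strand) encodes a partner of the meiotic recombinase and is no part of the proteasome. It measured 1.73, 2.04 and 2.21 FPKM with siSox9 and 2.84, 2.69 and 3.17 FPKM with siNC, 0.688-fold (log2 difference -0.38, SE 0.08, adjusted p = 0.0108). As reads these were 81, 94 and 96 against 128, 118 and 143. It was the largest fall among the 45 members tested, and without Psmc3ip the lower members were 3 of 44 (17.6% of all genes were lower). Of its exon bases 21.2% overlap Mlx on the other strand, which was 10.2 ± 0.537 FPKM with siSox9 and 9.22 ± 0.359 FPKM with siNC (log2 difference 0.13, adjusted p = 0.0755).

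For the 34 members tested that did not pass, the log2 differences ran from -0.12 to 0.12. The 95% intervals reached down to -0.28, for Psmg2, and up to 0.23, for Psma5, so that differences below 0.823-fold or above 1.17-fold on the FPKM + 1 scale lay outside the interval of every one of them. Of these members 4 had an unadjusted p under 0.05. A miss of the threshold does not show that a member was equal in both groups.

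The members moved together between libraries of one group. The siNC replicate 1 library was the lowest of its group for 35 of the 45 members tested, against 33.8% of all genes, and the siSox9 replicate 3 library the highest of its group for 38 of 45, against 33.8% of all genes. In terms of each library's deviation from its group's mean, the median over members was -0.07 for siNC replicate 1, 0.05 for siNC replicate 2 and 0.06 for siSox9 replicate 3, beside a median difference between the groups of 0.0713 without regard to sign. The members' median log2 difference of 0.04 came to 0.0075 without siNC replicate 1 and to 0.02 without siSox9 replicate 3. Without siNC replicate 1 the members called were 6 higher and 4 lower, and without siSox9 replicate 3 they were 5 higher and 5 lower. Either way 22.2% of members were called, against 30.4% of all genes without siNC replicate 1 and 23.7% without siSox9 replicate 3. These 2 libraries also stood apart beyond the members, by the mean chi-square per gene between recovered reads. For siNC replicate 1 it was 6.33 and 6.76 against replicates 2 and 3, and 2.62 between those 2. For siSox9 replicate 3 it was 3.64 and 2.87 against replicates 1 and 2, and 1.86 between those 2. What set these libraries apart was not tested.

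**Figure D4:**
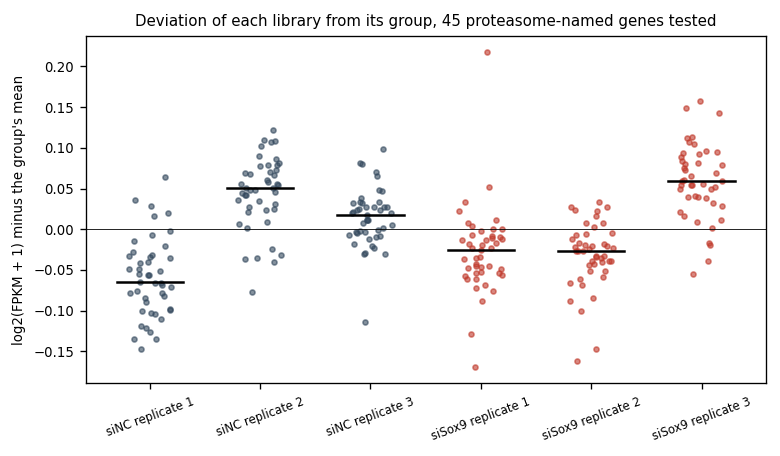
Deviation of each library from its group's mean on the log2(FPKM + 1) scale (vertical axis), 1 point for each of the 45 members tested, with black lines for the median of each library. Most members lie below 0 in siNC replicate 1 (median -0.07) and above 0 in siSox9 replicate 3 (median 0.06).

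Around the proteasome, 27 genes of the ubiquitin system and of proteasome control were found and tested under the 30 symbols listed, older names included. Of these 5 were higher and 4 were lower, in all 33.3%, near the 30.4% of all genes called. Nfe2l1, whose protein restores proteasome gene expression when the proteasome is impaired, measured 85.7, 84.1 and 77.3 FPKM with siSox9 and 66.9, 64.5 and 61.5 FPKM with siNC (log2 difference 0.35, SE 0.05, adjusted p = 0.00234). Nfe2l2, the regulator of the oxidant response, was 43.3 ± 1.64 FPKM with siSox9 and 34.3 ± 1.53 FPKM with siNC (log2 difference 0.33, adjusted p = 0.00183). Both were higher in each siSox9 library than in any siNC library, while Ddi2, the protease that activates the Nfe2l1 protein, was lower, with 6.80, 6.91 and 6.21 against 8.24, 8.17 and 8.42 FPKM (log2 difference -0.28, adjusted p = 0.00385). Ngly1, which also processes that protein, had a difference of -0.10 (adjusted p = 0.328). The enzymes that activate ubiquitin went apart: Uba1, the main one, had a log2 difference of 0.13 (adjusted p = 0.0146) and Uba6 one of -0.26 (adjusted p = 0.00675). The shuttle gene Ubqln2 was lower by a log2 difference of -0.14 (adjusted p = 0.0178). The remaining ones called, Zfand2a and Vcp (higher) and Rad23b (lower), were named after their values were seen. The core chaperone Pomp (log2 difference 0.07), the lid subunit Sem1 (-0.03) and the ubiquitin receptor Adrm1 (0.05), whose symbols lie outside the name rule, did not pass. Of the deubiquitinases that bind the 19S particle, Usp14 had a difference of 0.06 and Uchl5 of -0.11, neither past the threshold.

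Beside the immunoproteasome genes, 14 of 18 listed genes of interferon signalling and antigen processing were tested, with 3 higher and 1 lower, in all 28.6% against 30.4% of all genes. Tapbp, which loads peptides onto class I molecules, was higher at 41.2, 42.5 and 41.9 against 35.8, 33.1 and 33.9 FPKM (log2 difference 0.28, adjusted p = 0.00161). Ifngr2, a chain of the interferon gamma receptor, had a log2 difference of 0.26 (adjusted p = 0.00074) and Erap1, a peptide trimming enzyme, one of 0.18 (adjusted p = 0.012). Jak2, a kinase of that receptor, was lower at 10.3, 10.3 and 10.1 against 13.9, 13.7 and 14.4 FPKM (log2 difference -0.42, adjusted p = 0.000223). Irf1, a direct inducer of the immunoproteasome genes, did not pass (log2 difference 0.10, adjusted p = 0.287). The list thus gave no single direction beside the low Psmb9 and Psmb8.

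**Figure D5:**
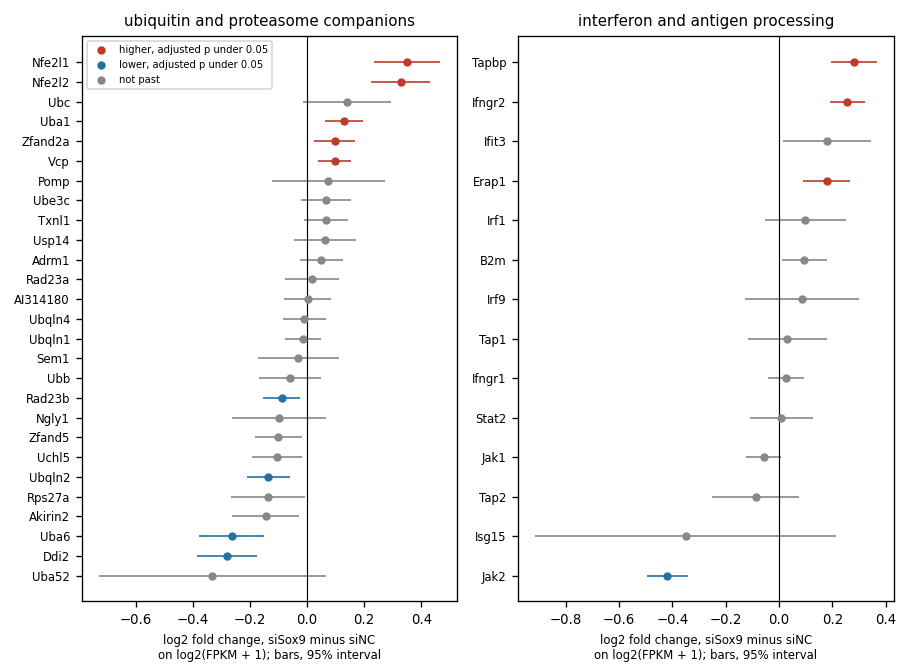
Log2 difference between siSox9 and siNC on the log2(FPKM + 1) scale (horizontal axes) with its 95% interval, for the 27 ubiquitin and proteasome companion genes on the left and the 14 interferon and antigen processing genes on the right, ordered by value. Nfe2l1 (0.35) and Nfe2l2 (0.33) stand at the top on the left, with Ddi2 (-0.28) near the bottom, and Tapbp (0.28) and Jak2 (-0.42) at the ends on the right.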

How the data were processed

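RNA of 6 libraries was sequenced on an Illumina NovaSeq. The authors deposited 1 table of FPKM per gene and library; their processing notes list Bowtie2 2.2.3, HISAT2 2.1.0, TopHat2 and mm9 with no role, but 93.3% of the 30246 genes found in GENCODE M21 had its GRCm38 positions, so positions are given as GRCm38. The counter, strandedness and treatment of multi-mapped reads are not given in the sources used here. The names of 3 columns do not spell out Sox9; they were read as siSox9, since the labels hold siNC and siSox9 only.

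Groups were compared in R 4.3.3 with limma 3.58.1 (trend, no block) on log2(FPKM + 1) for genes averaging 1 FPKM or more, with a Benjamini-Hochberg adjusted p under 0.05; this scale understates changes of low genes. Whole reads were recovered with M21 exon lengths (93.3% of values whole within 0.02 reads; 27943 genes in all libraries) for limma voom as an alternative. Among members whose reads came out whole, a library's value rests on 16 (Psmb9) to 11927 (Psmd8) reads. Replicates were not identical. Windows of 50 bases shared between transcripts and overlapping exons were counted in M21. Scripts were tested on simulated data. The members and lists were chosen with earlier results of these data known. Named by rule are all members, the 3 largest rises and falls past the threshold in the companion and interferon lists, Sox9 and Nfe2l1. Further genes of these lists, cell markers, copies, overlapping genes and neighbours were named outside this rule. Alternatives were other pseudocounts, minimums, scalings, fits and leaving out each library.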

Additional observations from a re-analysis of the deposited data

How the results depend on the processing

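Psmd7, Psmd10, Psmd11, Psme2b and Psmc3ip kept their call in every alternative that could test them. Among the members tested and the companion and interferon genes named by rule, calls were lost in 37 gene and setting pairs and gained in 11. Without single libraries, the count of all genes called ran from 2424 (without siSox9 replicate 2, against 3650) to 3654, that of higher members from 4 (without siNC replicate 3, against 7) to 7, and that of lower members from 2 (without siSox9 replicate 1 or 2 or siNC replicate 2, against 4) to 5. With no minimum on FPKM (28122 genes tested), and likewise without moderation, 1 member was lower. In both cases it was Psmc3ip, which is no part of the proteasome, as Psma7, Psmb2 and Psmg1 were no longer called. With no minimum, 14% of members were called against 9.6% of all genes, the reverse of the order in the main test (24.4% against 30.4%). Without moderation the shares were 13% and 22%. Psma4 and Psma7 lost their calls in both of these settings (limma adjusted p of 0.0855 and 0.0516 with no minimum, 0.0970 and 0.0686 without moderation). Sox9 was lower in every setting. Without single libraries the Psmb9 to Psmb6 ratio with siSox9 was 39.3% to 51.2% of that with siNC, the Psmb8 to Psmb5 ratio 55.1% to 77.8%, and the Psmb10 to Psmb7 ratio 98.4% to 104.0%. Recovered reads gave 9 higher and 4 lower of 40 members tested (32.5%), against 35.3% of the 10474 genes in that fit. With no minimum on these reads the order was reversed too, with 29% of 42 members called against 14% of 25754 genes. With the replicate numbers as a replicate block, 3262 genes (27.2%) passed. Of the members 6 higher and 3 lower passed (20%), with Psmb2 and Psmc2 lost. Same-numbered libraries did not deviate together (correlations of 0.06, -0.05 and 0.0078), so the numbers were not taken as pairs.

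Members near 0 changed sign, none of them called. Under TPM and median-centred values the differences became 0.0027 and 0.0009 for Psma3, 0.0266 and 0.0250 for Psmb7, 0.0055 and 0.0031 for Psmc3, and 0.0120 and 0.0150 for Psmd9. Quantile normalization gave -0.0071 for Psma1, 0.0051 for Psmb7, -0.0236 for Psmc5, -0.0133 for Psmd1 and 0.0456 for Psmd9. Without single libraries the ranges were -0.0556 to 0.0464 for Psma1, -0.0231 to 0.0844 for Psma2, -0.0932 to 0.0279 for Psma3, -0.019 to 0.0949 for Psma5, -0.0105 to 0.0769 for Psmb4, -0.036 to 0.0375 for Psmb7, -0.0569 to 0.0475 for Psmb10, -0.066 to 0.0068 for Psmc3, -0.0129 to 0.0333 for Psmc5, -0.0221 to 0.0357 for Psmd1, -0.0449 to 0.0161 for Psmd9, -0.0979 to 0.0919 for Psmg4 and -0.0276 to 0.0479 for Psme2. The cause was not tested. Where leaving out a library left its group with fewer, the spread was shared across genes. Among members with recovered reads, depth limits Psmb9 and Psmg3 most, at under 100 reads a library.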

Other observations

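Several members share their start region with a neighbour on the opposite strand, and the neighbours, looked up after the members' values were seen, were read from the same test. Atg4a, a protease of autophagy, starts 179 bases from Psmd10 and was higher too, with 7.92, 7.95 and 7.74 FPKM with siSox9 and 5.65, 6.43 and 6.15 FPKM with siNC (limma, log2 difference 0.33, adjusted p = 0.00279), beside 0.39 for Psmd10. Ftsj3, which starts 75 bases from Psmc5, was higher (log2 difference 0.15, adjusted p = 0.0107), while Psmc5 had a difference of 0.01. Cep76, which starts 263 bases from Psmg2, was lower (log2 difference -0.22, adjusted p = 0.0423), while Psmg2 had a difference of -0.10 and did not pass. Dnajc2, 32 bases from Psmc2, had a difference of -0.05 (adjusted p = 0.309) beside 0.13 for Psmc2, and Ss18l1, 76 bases from Psma7, one of -0.11 (adjusted p = 0.337) beside -0.19 for Psma7. Mrpl32, 75 bases from Psma2, had 0.09 (adjusted p = 0.122) beside 0.03. No test compared such pairs with other neighbours.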
